A study of Mus musculus with 6 samples.

Results

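Ovarian macrophage genes were examined in RNA of entire ovaries from female mice aged 8 months. They are 10 genes by which tissue macrophages are commonly recognised: C1qa, C1qb, C1qc, Cd68, Csf1r, Adgre1, Mrc1, Cd163, Gpnmb and Itgb2. A probe set was taken for a member only where the platform annotation gave it exactly 1 gene symbol, and where a gene had several, the brightest on average over the 6 arrays stood for it. This gave 15 probe sets of the 45101 on the array and 10 genes of the 18194 so named. The WT group held 3 wild-type samples and the FORKO group 3 samples from mice in which every variant of the receptor for follicle-stimulating hormone (FSH) had been deleted, per the labels. Females of both groups came from crosses between heterozygotes on the 129T2 svEmsJ background, and both ovaries were pooled for an RNA sample. The labels call the samples biological replicates without saying how many mice stand behind each, so a p-value reflects only how far these samples spread. Titles and genotype fields give the groups, whereas the free-text fields of the FORKO samples speak of wild-type tissue, a conflict the labels do not resolve.

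Macrophages enter the ovary from the blood or persist there as resident cells, and they clear the remains of dying follicles and regressing corpora lutea. They depend on the growth factor CSF1, which acts through the receptor encoded by Csf1r. Their tools for taking up debris include the complement recognition protein C1q, scavenger and lectin receptors such as CD163 and the mannose receptor, and a large lysosomal system marked by CD68. None of these genes is restricted to macrophages of the ovary: Itgb2 serves nearly all leukocytes, Mrc1 is also made by some endothelial cells, and Gpnmb also by melanocytes and osteoclasts.

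Values below are MAS5 signals, a linear array brightness in arbitrary units, scaled so that all arrays share 1 mean after trimming 2% at each end. Levels can be compared between arrays for 1 gene, but not between genes. Changes are differences of group means of log2(signal + 5.73), positive where FORKO was higher. It was tested with limma on the 22506 probe sets above a filter on dim signals, with p-values adjusted over all of them. The deleted gene was read first. Fshr read 99.6, 59.4 and 119 on the WT arrays and 1.20, 11.2 and 11.7 on the FORKO arrays, with a log2 change of -2.90 (limma adjusted p = 0.0102; 0.0526 without WT replicate 1 and 0.0598 without WT replicate 3). The Pearson correlation of log2 signals over all probe sets was 0.967 to 0.968 between WT arrays and 0.970 between FORKO replicates 2 and 3, but 0.954 between FORKO replicate 1 and either of them. FORKO replicate 1 thus stood apart from the rest of its group. Changes without it are given for every member. For other genes, and for lists whose median change is given, they follow where they differ by over 1.5 times. Lists of other cell types are described by values of the arrays or by ranges instead. All 10 members passed the dim filter, a cut on the mean signal over all 6 arrays that is not a test of detection. Genes above it are called measured below. The dimmest member, Cd163, averaged 34.1 in WT and 34.6 in FORKO.

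No macrophage gene passed the test, and 1 array carried most of the difference between the groups. FORKO replicate 1 gave the highest signal of all 6 arrays for 9 of the 10 genes, against 20.4% of all tested probe sets. The median of the 10 genes on that array lay 0.78 above the WT mean on the log2 scale, while FORKO replicates 2 and 3 lay 0.07 and 0.35 above it. Gpnmb and Itgb2 had the largest changes (1.40 ± 0.50 and 1.11 ± 0.43, SE, n = 3 in each group), and Mrc1 and Cd163 the smallest (0.05 ± 0.16 and 0.02 ± 0.20). All 10 changes were positive, with a median of 0.33, whereas 48.8% of all tested probe sets were positive, with a median of -0.01. Without FORKO replicate 1 the median of the 10 genes was 0.05, and 7 of the 10 changes were positive, against 51.0% of all probe sets. The median was 0.13 without WT replicate 2 and 0.56 without FORKO replicate 2. After subtracting group means, arrays with equal replicate numbers correlated only weakly, at 0.195, 0.134 and 0.358, and the labels do not call them pairs. Taken as pairs, FORKO read above WT in all 3 for 6 genes (C1qa, C1qb, Csf1r, Adgre1, Gpnmb and Itgb2), against 20.2% of all probe sets. The median difference of the 10 genes was 0.88 in pair 1, 0.21 in pair 2 and 0.12 in pair 3, and the fit with the pair as a block passed none of them.

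By limma's adjusted p, 0 of the 10 genes passed, where 1.65% of all probe sets did, and again 0 of the 10 without FORKO replicate 1, where 3.84% of all probe sets did. At an unadjusted limma p under 0.05 the count was 3 of 10 (Gpnmb, Itgb2 and Adgre1), against 14.6% of all probe sets. The groups did not overlap for Adgre1 and Gpnmb, both higher in FORKO, where 9.99% of all probe sets had no overlap in that direction. In bulk tissue a change in the number of cells of a type and a change in RNA per cell cannot be told apart. This holds for every value here and below. An exact permutation test of 3 against 3 arrays cannot give a p below 0.1.

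**Figure D1:**
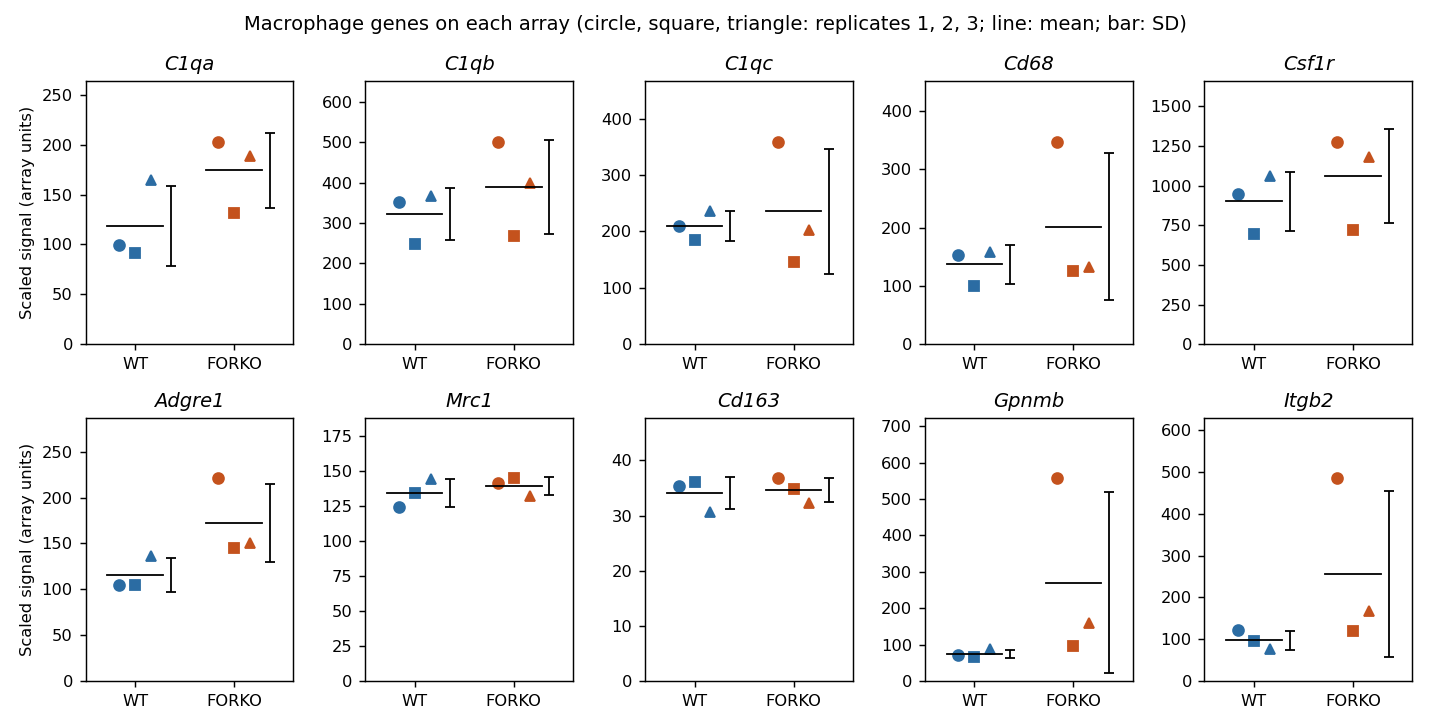
Scaled signal (vertical axis, array units, starting at 0) of the 10 macrophage genes in WT (blue) and FORKO (orange) ovaries; circles, squares and triangles are replicates 1, 2 and 3, the horizontal line is the group mean and the bar its SD (n = 3). FORKO replicate 1 is the highest point for 9 genes, with Gpnmb at 557 and Itgb2 at 485, while Mrc1 and Cd163 differ little between any arrays.

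The 3 C1q genes encode the chains of the protein that recognises antibody complexes and dying cells and starts the classical complement pathway. The chains assemble into 1 molecule, their genes neighbour each other, and in most tissues macrophages are their main source. The RefSeq promoter windows of C1qb and C1qc, 250 bases before to 50 after the gene start in build GRCm38.p6, are shown because these neighbouring genes had similar signals over the arrays. Both lie on the minus strand, C1qb at chr4:136886151-136886450 and C1qc at chr4:136892865-136893164. Each sequence is given 5′ to 3′, and capitals mark matches on either strand to the core recognised by the myeloid factor PU.1 (GAGGAA), to the E-box recognised by MITF and TFE factors (TCANGTG) or to the RUNX motif (TGTGGT).
C1qb: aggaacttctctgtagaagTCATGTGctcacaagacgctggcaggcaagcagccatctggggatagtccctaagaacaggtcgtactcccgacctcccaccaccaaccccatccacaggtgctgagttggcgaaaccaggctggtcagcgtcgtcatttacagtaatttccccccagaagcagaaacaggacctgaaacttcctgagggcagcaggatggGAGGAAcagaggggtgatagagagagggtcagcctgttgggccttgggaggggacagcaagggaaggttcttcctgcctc
C1qc: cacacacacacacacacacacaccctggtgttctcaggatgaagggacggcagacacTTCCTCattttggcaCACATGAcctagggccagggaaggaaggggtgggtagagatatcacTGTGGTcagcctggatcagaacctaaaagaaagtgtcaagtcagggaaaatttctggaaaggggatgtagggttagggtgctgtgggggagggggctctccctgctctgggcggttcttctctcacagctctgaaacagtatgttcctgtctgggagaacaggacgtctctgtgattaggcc
The C1qb window held 1 PU.1 and 1 E-box match, and the C1qc window 1 match to each of the 3 motifs. No matches overlapped. Of all 32851 promoter windows of this length in the RefSeq table, 28.3% held the PU.1 letters, 14.3% the E-box and 16.8% the RUNX letters, so such matches are common and are given as a description only.

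C1qa, the A chain, read 99.3, 91.4 and 164 on the WT arrays and 203, 132 and 188 on the FORKO arrays. WT replicate 3 lay above FORKO replicate 2, so the groups overlapped, although the other 2 FORKO arrays exceeded every WT array. Its change was 0.56 ± 0.26 (SE; 95% interval -0.01 to 1.13; limma adjusted p = 0.353), and 0.44 remained without FORKO replicate 1. The B chain gene C1qb read 352, 247 and 367 in WT and 501, 268 and 398 in FORKO. Here FORKO replicate 2 lay near the lowest WT array, and the change was 0.24 ± 0.25 (limma adjusted p = 0.722), or 0.04 without FORKO replicate 1. C1qc, the C chain, read 209, 184 and 236 in WT and 359, 145 and 203 in FORKO. FORKO replicate 2 was the lowest array of all 6 and FORKO replicate 1 the highest, and the change of 0.07 ± 0.29 (limma adjusted p = 0.939) turned to -0.27 without FORKO replicate 1. Over the FORKO arrays the 3 genes kept the same order, replicate 1 highest and replicate 2 lowest. WT replicate 2 was the lowest and WT replicate 3 the highest WT array for each of them.

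The other 2 probe sets of C1qb also had positive changes that did not pass. These were 0.23 and 0.37 (limma adjusted p = 0.794 and 0.613; 0.037 and 0.020 without FORKO replicate 1), and FORKO replicate 1 was the highest array in both. The standing probe set of C1qb belongs to a class whose probes may also match other transcripts, as does that with the change of 0.23.

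Csf1r encodes the receptor for CSF1 and interleukin 34, which keeps macrophages alive. Its standing probe set read 950, 697 and 1061 in WT and 1277, 723 and 1178 in FORKO. The groups overlapped over most of their range, with a change of 0.21 ± 0.24 (SE; 95% interval -0.32 to 0.74; limma adjusted p = 0.757). Of its other 2 probe sets, 1 had a change of 0.15 and the other of -0.16 (limma adjusted p = 0.785 and 0.837), so that the probe sets of this gene did not share a direction. The mean over all 3 probe sets changed by 0.07 on the log2 scale. Without FORKO replicate 1 the standing probe set changed by 0.05 and the others by 0.06 and -0.37.

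Adgre1 encodes F4/80, the adhesion receptor by which mouse macrophages are most often stained. Its signal was 105, 105 and 137 in WT and 221, 145 and 150 in FORKO ovaries. All FORKO arrays lay above all WT arrays, the closest pair being WT replicate 3 and FORKO replicate 2. Even so the change of 0.53 ± 0.21 (SE; 95% interval 0.06 to 1.01) did not pass (limma adjusted p = 0.281; exact permutation p = 0.1, two-sided). Without FORKO replicate 1 it was 0.35 (95% interval -0.09 to 0.78; limma adjusted p = 0.439). Cd68, a lysosomal membrane glycoprotein of phagocytes, read 154, 99.2 and 158 in WT and 348, 126 and 132 in FORKO. FORKO replicate 1 stood alone at 2.54 times the WT mean, and the other FORKO arrays lay inside the WT range. The change of 0.41 ± 0.36 (limma adjusted p = 0.669) was -0.055 without that array. F4/80 and CD68 are used to count the same cells, yet FORKO replicates 2 and 3 read above every WT array for Adgre1 and within the WT range for Cd68.

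The endocytic receptors differed least. Mrc1, the mannose receptor, read 124, 135 and 144 in WT and 142, 145 and 132 in FORKO. All 6 arrays lay within 1.17-fold of each other, and the change was 0.05 ± 0.16 (SE; 95% interval -0.31 to 0.42; limma adjusted p = 0.918). Cd163, the scavenger receptor for haemoglobin bound to haptoglobin, read 35.4, 36.1 and 30.7 in WT and 36.7, 34.7 and 32.3 in FORKO. Its highest array exceeded its lowest by 1.20-fold, and the change was 0.02 ± 0.20 (95% interval -0.43 to 0.47; limma adjusted p = 0.978). FORKO replicate 1 lay inside the WT range for Mrc1 and at 1.08 times the WT mean for Cd163, whereas it read 1.41 to 7.47 times the WT mean for the other 8 genes. At 34.1 ± 2.94 in WT and 34.6 ± 2.21 in FORKO (SD, n = 3), Cd163 was not far above the dim filter of 20.4. Sign and size of both changes depended on the scaling: Mrc1 was at -0.018 with arrays scaled to 1 median, and Cd163 was at -0.045 in that setting, -0.039 after quantile normalization and -0.014 with signals as deposited. Without FORKO replicate 1 the change was 0.044 for Mrc1 and -0.018 for Cd163. Changes of up to 0.42 for Mrc1 and 0.47 for Cd163 lie inside the intervals over all 6 arrays, so equal levels were not shown.

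Itgb2 encodes the β2 chain shared by the leukocyte integrins, through which monocytes and other white cells adhere to vessels and to complement-coated particles. It read 121, 95.05 and 76.2 in WT and 485, 119 and 167 in FORKO. FORKO replicates 1 and 3 lay above every WT array, while FORKO replicate 2 fell just below WT replicate 1. The change was 1.11 ± 0.43 (SE; 95% interval 0.15 to 2.07; limma adjusted p = 0.268), and its lowest adjusted p under any alternative was 0.0887, with the replicate number as a block. It was 0.53 (95% interval 0.03 to 1.04; limma adjusted p = 0.285) without FORKO replicate 1.

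Gpnmb encodes a transmembrane glycoprotein that becomes abundant in phagocytes with a heavy lysosomal or lipid load. It read 71.2, 65.8 and 86.7 in WT and 557, 96.0 and 159 in FORKO. The groups did not overlap, but the FORKO arrays ranged over 5.80-fold, from 1.29 times the WT mean in replicate 2 to 7.47 times in replicate 1. The change of 1.40 ± 0.50 (95% interval 0.28 to 2.53) did not pass (limma adjusted p = 0.231; exact permutation p = 0.1, two-sided). It was 0.70 (95% interval 0.18 to 1.22; limma adjusted p = 0.151) without FORKO replicate 1 and 1.93 (limma adjusted p = 0.0704) without FORKO replicate 2. A second probe set of Gpnmb lay under the dim filter, at 11.5, 6.04 and 9.58 in WT and 7.43, 3.46 and 1.16 in FORKO, and was not tested. Its signal was not raised in FORKO replicate 1.

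**Figure D2:**
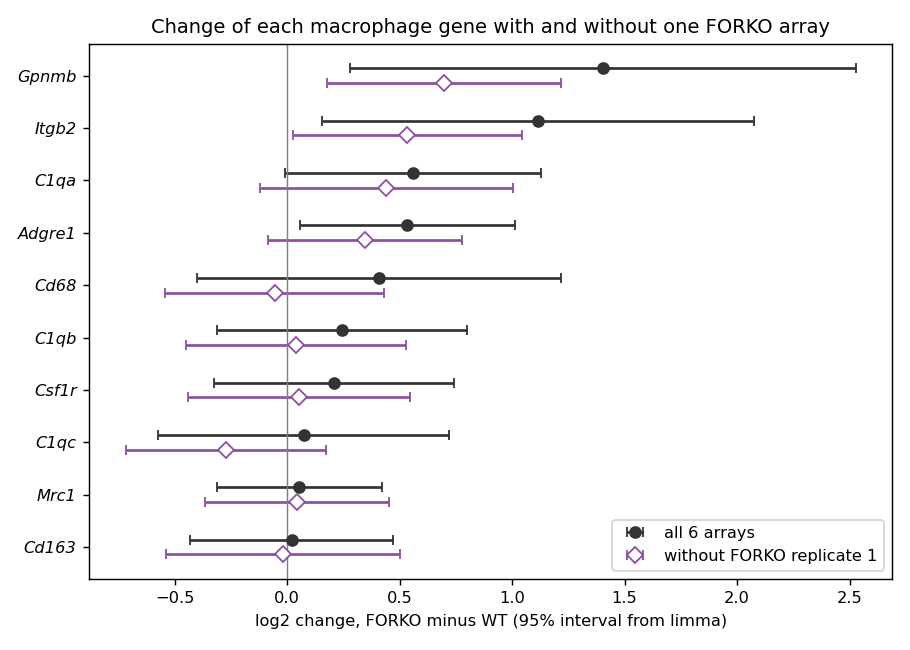
Log2 change of each macrophage gene, FORKO minus WT (horizontal axis), with limma's 95% interval; filled circles use all 6 arrays and open diamonds leave out FORKO replicate 1. Gpnmb moves from 1.40 to 0.70 and Cd68 from 0.41 to -0.055 when that array is left out, and Mrc1 and Cd163 stay near 0 in both fits.

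The promoter windows of Gpnmb (plus strand, chr6:49036268-49036567) and Mrc1 (plus strand, chr2:14229164-14229463) are shown as those of the gene with the largest change and of a gene with almost none. Capitals mark the same 3 motifs.
Gpnmb: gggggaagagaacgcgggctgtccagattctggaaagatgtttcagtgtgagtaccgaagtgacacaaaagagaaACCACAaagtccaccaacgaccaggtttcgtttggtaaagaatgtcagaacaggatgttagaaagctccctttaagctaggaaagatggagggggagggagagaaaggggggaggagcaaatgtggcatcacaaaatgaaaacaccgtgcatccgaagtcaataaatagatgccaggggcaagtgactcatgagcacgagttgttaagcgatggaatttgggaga
Mrc1: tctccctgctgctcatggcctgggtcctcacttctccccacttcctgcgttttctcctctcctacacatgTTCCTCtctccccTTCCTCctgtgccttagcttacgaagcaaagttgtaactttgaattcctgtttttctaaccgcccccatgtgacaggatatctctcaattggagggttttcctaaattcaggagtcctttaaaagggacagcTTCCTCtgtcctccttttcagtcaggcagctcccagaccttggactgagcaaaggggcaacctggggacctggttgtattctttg
The Gpnmb window held a single RUNX match, on the opposite strand, and neither PU.1 nor E-box letters. The Mrc1 window held 3 PU.1 matches, all on the opposite strand. Of the 6 members with a window in the table, 4 held PU.1 letters (C1qb, C1qc, Cd68 and Mrc1), 2 the E-box (C1qb and C1qc) and 2 the RUNX letters (C1qc and Gpnmb). The window of Cd163 held none of them.

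Genes that act with the members were read in lists chosen, like the members, with earlier results of these data known. Some lists hold genes with a WT mean under the dim filter of 20.4, which passed it only through their FORKO signals. Counts and medians of the lists include such genes and are a description. Counts in this and the next paragraphs are to be read beside the shares of all probe sets. Of these 1.65% passed, 14.6% had an unadjusted limma p under 0.05, and 9.99% were higher in FORKO with no overlap. Among integrin partners and ligands, Icam1, the endothelial and myeloid ligand of β2 integrins, read 63.9, 57.6 and 83.8 in WT and 217, 121 and 147 in FORKO. The groups did not overlap, and Icam1 rose by 1.15 ± 0.24 (SE; limma adjusted p = 0.0497). The call was made in 7 of 18 settings, with limma adjusted p between 0.0211 and 0.204. It was lost without FORKO replicate 3 and without any 1 of the WT arrays. With all 6 arrays kept it was also lost after quantile normalization (limma adjusted p = 0.0532) and with 1 median (0.0730). The same held for both other pseudocounts (0.0510 and 0.0509), no dim filter (0.0832), a stricter one (0.0633) and no intensity trend (0.0695). Itgax, the α chain that pairs with β2 on dendritic cells and some macrophages, read 19.1, 10.1 and 8.95 in WT and 90.7, 31.0 and 42.5 in FORKO. The change of 1.63 did not pass (limma adjusted p = 0.0690; 0.0220 with the replicate block). With a WT mean of 12.7 Itgax exceeded the dim filter of 20.4 only through its FORKO signals, so a difference was built into its selection and these values support nothing. Itgal, the α chain of LFA-1 on lymphocytes and monocytes, changed by 1.06 (limma adjusted p = 0.188) with no overlap between groups. Itgax and Itgal were named after their values were seen, as partners of Itgb2. The α chain gene Itgam, which macrophages and neutrophils carry, lay under the dim filter. In all, 1 of 7 measured genes of this list rose, 6 did not pass, and the median change was 0.65 (0.28 without FORKO replicate 1). Itgax counts in the 7 and in both medians, so these are a description. The other genes changed by -0.17 to 1.15. With the replicate block 2 passed, but the second was Itgax, whose selection built in a difference.

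Partners of C1q were measured in 8 genes, of which 0 passed by limma (1 with the replicate block). An unadjusted p under 0.05 was found for 4 of them, against 14.6% of all probe sets. Serping1, the inhibitor of the C1 proteases, read 448, 394 and 541 in WT and 1663, 824 and 874 in FORKO. Its groups did not overlap; the change of 1.21 (limma adjusted p = 0.0555) passed with the replicate block (limma adjusted p = 0.0346) and without FORKO replicate 1 (0.88, limma adjusted p = 0.0137). Lrp1, an endocytic receptor that has been described to bind C1q, changed by 0.59 (limma adjusted p = 0.160). The list's median was 0.26 (0.13 without FORKO replicate 1). All FORKO arrays lay above all WT arrays for 4 of the 8 genes, against 9.99% of all probe sets. These were Serping1, Lrp1 and the protease genes C1ra and C1s1. C1ra and C1s1 were named after their values were seen, and without FORKO replicate 1 their changes went from 0.56 to 0.31 and from 0.50 to 0.33.

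Lysosomal and lipid-handling phagocyte genes are the company in which Gpnmb is usually found. Their median change was 0.29 (0.16 without FORKO replicate 1), and 0 of 18 passed by limma. Of the 18, 6 had an unadjusted p under 0.05, Mmp12 among them, against 14.6% of all probe sets. Mmp12, the macrophage elastase, read 19.8, 19.8 and 16.2 in WT and 243, 53.6 and 64.0 in FORKO. Its change was 2.06 ± 0.46 (limma adjusted p = 0.0637; 0.0365 with the replicate block), and 1.41 without FORKO replicate 1 (limma adjusted p = 0.00678). With a WT mean of 18.6 Mmp12, like Itgax, passed the dim filter only through its FORKO signals, so its difference is a description. Acp5, the tartrate-resistant acid phosphatase, read 34.1, 39.7 and 49.95 in WT and 174, 64.0 and 99.9 in FORKO. Its groups did not overlap either, with a change of 1.24 (limma adjusted p = 0.0996). It passed in 2 of 17 settings, spike scaling (0.0446) and without FORKO replicate 2 (0.0369), and was 0.88 (limma adjusted p = 0.0782) without FORKO replicate 1. Trem2 lay under the dim filter.

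Fc receptors and innate sensors had a median change of 0.46 over 16 genes, and of 0.01 without FORKO replicate 1. None of the 16 passed by limma. With the replicate block 2 passed, Cd14 and Tlr2 (limma adjusted p = 0.0298 and 0.0470). An unadjusted p under 0.05 was found for 4, against 14.6% of all probe sets. Cybb, the catalytic subunit of the phagocyte oxidase, changed by 1.11 (limma adjusted p = 0.183) and Ly86, the partner of an endotoxin receptor family member, by 0.99 (limma adjusted p = 0.199). For both genes the FORKO arrays lay above the WT arrays, and without FORKO replicate 1 the changes were 0.65 and 0.59. Among 10 measured genes known from resident macrophages 0 passed by limma (1 at an unadjusted p under 0.05), the median change was 0.31, and it was 0.33 without FORKO replicate 1. Cbr2 of this list read 36.2, 29.8 and 19.8 in WT and 6.45, 69.4 and 58.2 in FORKO. Its change of 0.21 (limma adjusted p = 0.915) was 1.04 without FORKO replicate 1, where it passed (limma adjusted p = 0.0480). Mertk, a receptor for dying cells, read 115, 100 and 123 in WT and 252, 145 and 203 in FORKO, with no overlap (change 0.77, limma adjusted p = 0.133). Lyve1, found on some resident macrophages and on lymphatic vessels, changed by 0.52 (limma adjusted p = 0.373). Timd4, Folr2, Vsig4, Marco, Cd209f and Siglec1 of this list were under the dim filter.

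Of the CSF1 system, Csf1 read 38.3, 37.3 and 47.2 in WT and 52.5, 52.2 and 44.9 in FORKO, and Il34 was under the dim filter; both are named here as ligands of the receptor, outside the rule for named genes. The groups overlapped for Csf1, with a change of 0.26 (limma adjusted p = 0.616). Among 7 measured ligands and myeloid transcription factors 0 passed by limma (1 with the replicate block; 1 at an unadjusted p under 0.05), and the median change was 0.06 (0.0083 without FORKO replicate 1). Maf, a transcription factor of resident macrophages that other cells also make, read 1418, 1137 and 1091 in WT and 858, 804 and 737 in FORKO. The groups were separate, with FORKO the lower; the change of -0.59 (limma adjusted p = 0.101) passed with the replicate block (limma adjusted p = 0.0432). Cebpa changed by -0.67 (limma adjusted p = 0.376). Of 5 measured monocyte genes 0 passed by limma (1 at an unadjusted p under 0.05), with a median of 0.09 (-0.15 without FORKO replicate 1). Fn1 read 117, 176 and 186 in WT and 55.9, 493 and 437 in FORKO, so that FORKO replicate 1 was the lowest array and the other FORKO arrays the highest. Its change was 0.56 (limma adjusted p = 0.770), and it passed in 1 of 18 settings, without FORKO replicate 1 (1.53, limma adjusted p = 0.00156). Vcan changed by -0.35 (limma adjusted p = 0.332).

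**Figure D3:**
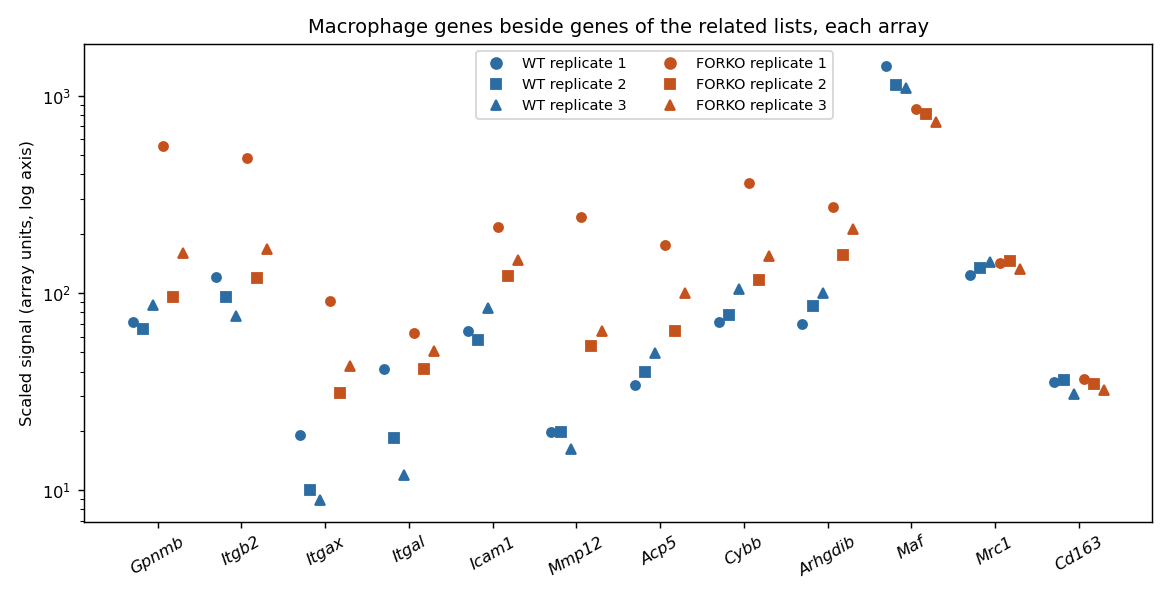
Scaled signal on a log axis (vertical, array units) of 4 members (Gpnmb, Itgb2, Mrc1 and Cd163) and of genes from the related lists, chosen after their values were seen; blue symbols are WT and orange symbols FORKO arrays, by replicate. Mmp12 lies between 16.2 and 19.8 in WT and between 53.6 and 243 in FORKO, Maf is lower on every FORKO array, and Cd163 differs little.

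By the median or summed signal of a list, pan-leukocyte and lymphocyte genes also read highest on FORKO replicate 1, unlike neutrophil and mast cell markers. This did not hold for every single gene. Pan-leukocyte genes had a median of 1.55 on FORKO replicate 1, against 0.02 and 0.32 on FORKO replicates 2 and 3, and their summed signal ranged from 1571 to 2091 in WT and from 1698 to 5217 in FORKO. Vav1 and Cd48, with WT means of 14.2 and 18.0, passed the dim filter only through their FORKO signals and count in these medians. The values 1.55 and 0.02 are those of Vav1 itself, so the medians are a description. Of 11 measured, Arhgdib rose from 85.2 ± 15.5 to 214 ± 59.1 (SD, n = 3 in each; log2 change 1.25, limma adjusted p = 0.0323), and 10 did not pass (9 with the replicate block). The call for Arhgdib was made in 11 of 18 settings (limma adjusted p = 0.0153 to 0.132) and lost in 7. Among the latter were the fits without WT replicate 1, 2 or 3 (limma adjusted p = 0.127, 0.132 and 0.0829) and without FORKO replicate 3 (0.0983). Ptprc, which encodes CD45, read 310, 267 and 250 in WT and 1165, 285 and 432 in FORKO, and its change of 0.92 (limma adjusted p = 0.346) was 0.35 without FORKO replicate 1. It was named as the defining gene of the list, outside the rule. Of 10 T and B lymphocyte markers with a probe set, 2 were above the dim filter, Cd3g and Ighm, and the summed signal of all 10 ran from 135 to 209 in WT and from 128 to 370 in FORKO, again highest in FORKO replicate 1. Neutrophil markers were mostly dim: 2 of 9 passed the filter, S100a8 and S100a9 were under it, and FORKO replicate 1 had a lower sum over all 9, 52.1, than FORKO replicates 2 and 3, 138 and 114. The WT sums were 43.1, 108 and 89.4, so that WT replicate 1 was the lowest of all. Of 7 dendritic cell markers 2 passed the filter, and the summed signal of all 7 was 114 to 131 in WT and 142 to 244 in FORKO. Of 4 measured mast cell markers 1 passed (2 with the replicate block): Hdc rose by 0.90 (limma adjusted p = 0.0476), a call made in 8 of 18 settings (limma adjusted p = 0.0268 to 0.142). It was lost without FORKO replicates 2 and 3, without any 1 of the WT arrays, and among the scalings with signals as deposited (0.0814) and with 1 median (0.0945). The median of the mast cell markers was 0.16 on FORKO replicate 1 and 0.76 and 1.02 on FORKO replicates 2 and 3. Hdc itself was highest on FORKO replicate 1, at 371, against 324 and 358 on FORKO replicates 2 and 3.

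FORKO replicate 1 differed in ovarian cell markers too. Of 9 measured granulosa markers Fshr fell and 8 did not pass (6 with the replicate block), and the list's median was -3.27 on that array, against 0.37 and 0.30 on FORKO replicates 2 and 3. The summed granulosa signal was 13622 to 18128 in WT and 6173 to 17497 in FORKO. Surface epithelium markers, of which 3 of 11 rose (Krt8, Krt18 and Gpm6a), had medians of 1.57, 0.46 and 0.67 on FORKO replicates 1, 2 and 3, with sums of 952 to 1208 in WT and 1647 to 3134 in FORKO. Oocyte markers, of which 4 of 8 fell (Rfpl4, Oosp1, Zp2 and Zar1), had medians of -1.44, -0.94 and -0.82. Theca and luteal markers, of which 0 of 6 passed by limma (1 with the replicate block; 4 at an unadjusted p under 0.05), had medians of -0.96, -0.50 and -0.46. For endothelial markers, 0 of 7 passed by limma (1 with the replicate block; 1 at an unadjusted p under 0.05), and the medians were -0.13, 0.32 and 0.29. No gene of these lists was at 0 on any array. The part of these shifts in the macrophage values was not tested.

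**Figure D4:**
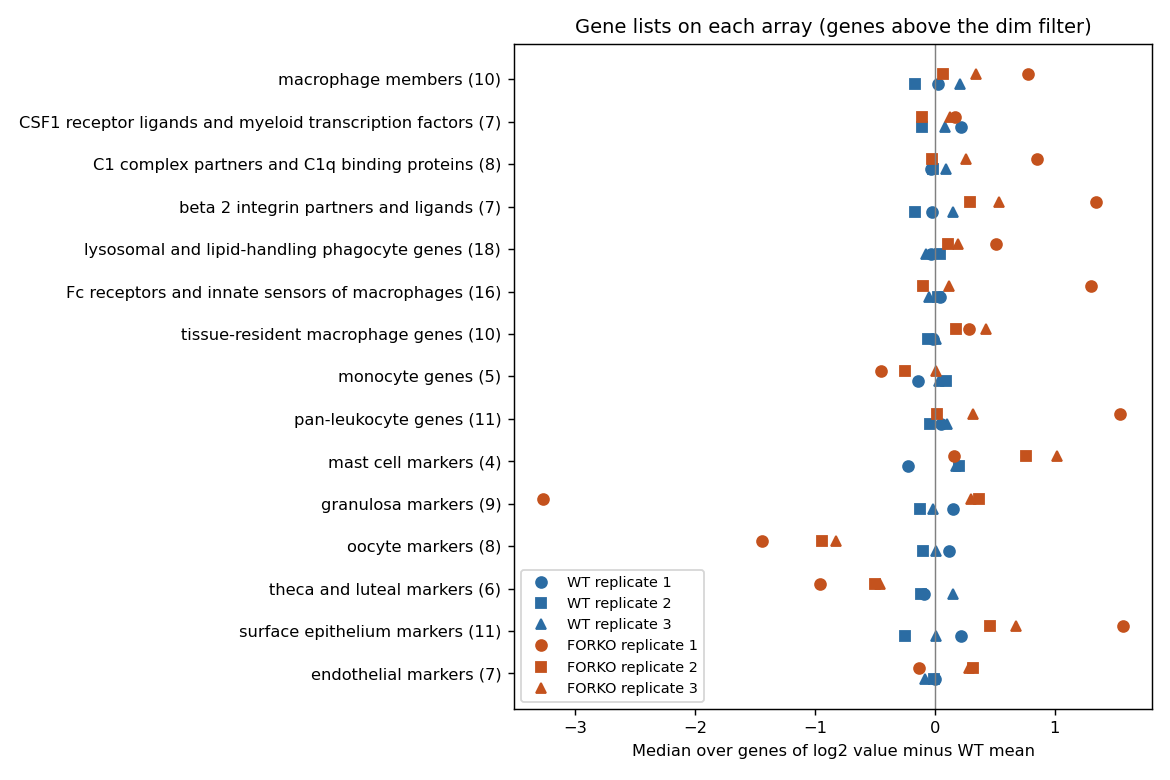
Median over the genes of each list of the log2 value minus the WT mean (horizontal axis) on each array, for lists with at least 4 genes above the dim filter; the number in brackets is that count, and symbols give the replicate (blue WT, orange FORKO). FORKO replicate 1 lies farthest right for the macrophage members (0.78) and pan-leukocyte genes (1.55) and farthest left for granulosa markers (-3.27). Medians of some lists, the pan-leukocyte genes among them, include genes that passed the filter only through their FORKO signals.

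The members differed in how closely each followed their common pattern. The Pearson correlation of a gene's log2 values with the mean standardised profile of the 10 members, over the 6 arrays, was 0.98 for Gpnmb, 0.94 for Cd68 and Adgre1, and 0.90 for Itgb2. It was 0.88, 0.86 and 0.81 for C1qb, C1qc and C1qa, 0.79 for Csf1r, and 0.34 and 0.17 for Mrc1 and Cd163. Each member contributes to that profile, and with 6 arrays of which 1 stands apart these values are a description. Among 11188 other genes the 5 most alike were Fnip2, Fermt3, Pram1, Dock11 and Vav1, with correlations of 0.990 to 0.996 over the 6 arrays. Fermt3 encodes kindlin-3, which activates β2 integrins in blood cells, and it read 48.9, 43.2 and 59.1 in WT and 140, 51.1 and 75.2 in FORKO. Vav1, an exchange factor of blood cells, read 14.7, 11.04 and 16.8 in WT and 52.0, 14.3 and 17.7 in FORKO. With WT means of 14.2 and 18.4, Vav1 and Pram1 passed the dim filter of 20.4 only through their FORKO signals. A difference was thus built into their selection, and their values are a description. Fermt3 and Vav1 were highest on FORKO replicate 1 and lowest on WT replicate 2. The profile they were picked to resemble has the same extremes, so this follows from the selection. None of the 5 passed the test (limma adjusted p = 0.385 to 0.581), and their changes were 0.35 to 0.65, or 0.13 to 0.28 without FORKO replicate 1.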

How the data were processed

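Whole-ovary RNA of 3 WT and 3 FORKO samples was hybridised to 1 Affymetrix mouse expression array each. The deposited values are intensity values made by the authors with MAS5, per the submitters' processing notes. No source used here states their scaling target or detection calls. Trimmed means of the arrays were 80.6 to 98.4, and scale factors of 0.895 to 1.09 made them equal. Then log2(signal + 5.73) was taken, the pooled 25th percentile being the pseudocount, the 64 controls were removed, and limma 3.58.1 (R 4.3.3) was run on probe sets with a mean of at least 20.4 (lmFit, eBayes with an intensity trend, two-sided, Benjamini-Hochberg over 22506 probe sets, threshold 0.05). The code was tested on simulated data. Figures were drawn with matplotlib 3.10.9. Arrays give no counts, and their number limits the precision.

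The platform annotation gave 1 symbol for 34958 probe sets, several for 932 and none for 9211. Members and lists were chosen with earlier results of these data known. Named genes were all members, Fshr, in each other list the genes that passed or else the 2 largest changes, and the 5 genes most like the members. Csf1, Il34, Ptprc, Itgax, Itgal, C1ra, C1s1, Cd14, Tlr2, Cbr2, Cd48 and genes listed as dim are named outside this rule. Lists of other cell types are given mainly as counts, and listed genes without a probe set of 1 symbol were not analysed here. Replicate numbers 1 to 3 occur in both groups and are not explained by the labels. After subtracting group means, WT and FORKO arrays with equal numbers correlated at 0.195, 0.134 and 0.358, all above 0.1. The numbers were therefore treated as pairs, on the evidence of the data and not of the labels. The fit with this block was an alternative, beside other scalings, pseudocounts, filters, variance models, probe set choices and each array left out. Promoter windows came from RefSeq (GRCm38.p6) and covered 6 of the 10 members.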

Additional observations from a re-analysis of the deposited data

How the results depend on the processing

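None of the 10 macrophage genes passed under any of the 17 alternatives. Of 169 member values computed, 160 kept their sign and 9 turned negative, all in C1qc, Cd68, Mrc1 and Cd163. Cd163 was at -0.039 after quantile normalization, -0.014 with signals as deposited and -0.045 with 1 median, and Mrc1 at -0.018 with 1 median. Leaving out each array in turn, the change ranged from -0.27 to 0.36 for C1qc, from -0.055 to 0.66 for Cd68 and from -0.042 to 0.061 for Cd163, and the members' median from 0.05 (without FORKO replicate 1) to 0.56 (without FORKO replicate 2); without WT replicate 2 it was 0.13. The 27 other genes with values under the alternatives kept their sign in all 447. The count of probe sets that passed, 372, was 589 with spike scaling, 221 without the dim filter, 191 with a stricter one, 691 with the replicate block, and 62 to 864 with 1 array left out; the cause was not tested beyond the change in arrays or probe sets. Of these calls 64.0% were higher in FORKO, against 50.6% with 1 median and 84.0% with spike scaling. Spike scaling moved the median of all probe sets to 0.15, and the members' median of 0.50 there is 0.34 above it. The replicate block changed no other call of a gene named here than those of Itgax, Serping1, Mmp12, Maf, Cd14 and Tlr2. Cd163 was not measured under the stricter filter. With 3 arrays a group, small changes cannot be resolved, and dim probe sets bear less on any statement.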
